A study of Homo sapiens with 6 samples.

Results

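The DNA repair genes of an alternative splicing table from brain-metastatic breast cancer cells were taken by gene symbol. These were symbols that begin with FANC, ERCC, XRCC or MLH, with RAD, MSH or LIG and a digit, or with PMS, together with BRCA1, BRCA2, BARD1, ATM, ATR, NBN, MRE11A, CHEK1, CHEK2 and RBBP8. The rule used names and no measured value, and it took 217 of the 24725 cassette exon events of the table, in 58 gene symbols. BRIP1 and PALB2 were also in the rule and had no event under those symbols. A cassette exon event is an exon that the spliced transcript can include or skip between a pair of flanking exons.

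The cells were MDA231-BrM2a, a brain-metastatic derivative of the triple negative breast cancer line MDA-MB-231, and RNA libraries were made from 3 samples of each of 2 groups. The control group was a non-clonal population with the empty vector pRetroX-Tight-Pur. The RBM47 group was a single clone, wt#10, with the same vector carrying Flag-tagged wild type RBM47, an RNA-binding protein, under a doxycycline-inducible promoter. Both groups received 10 ng/ml doxycycline for 3 days before poly(A) RNA was sequenced. The effect of RBM47 and the difference between a clone and a population cannot be told apart in this design. The labels call the libraries triplicates without naming separate cultures. Tests on the rates of single samples therefore measure a spread between samples that may be technical, and tests on summed reads measure no such spread.

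DNA repair proteins work in several routes. The kinases ATM and ATR sense broken or single-stranded DNA and pass the signal to CHEK1 and CHEK2, while the RAD9A-RAD1-HUS1 clamp, loaded by RAD17, helps ATR to act. The Fanconi anemia proteins remove crosslinks between the DNA strands, and homologous recombination, in which BRCA1 and BRCA2 act, copies an intact sister sequence into a break. Mismatch repair corrects copying errors, nucleotide excision repair cuts out bulky lesions, base excision and single-strand break repair deal with small ones, and the Ku proteins XRCC5 and XRCC6 hold broken ends for direct joining. Many of these genes have a large number of short exons, and losing an exon whose length is not a multiple of 3 shifts the reading frame.

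The inclusion rate used below compares reads over the junctions that include the exon with reads over the junction that skips it. The rates of single samples are those made by the authors, and a rate of 1 means that the exon was always included. From group sums, including reads were divided by the sum of including reads and 2 times the skipping reads. In some events the group sums do not match the sample rates, as given below for ATR, FANCI, RAD1 and some other repair genes. The exon of 86 events could be matched to a single annotated exon of GENCODE on the GRCh37 genome. Of these exons 70 were coding in full, 28 of them with a length that is a multiple of 3 and 42 with another length. The following exons are those of the events that the results turn on and that matched a single exon, read from GRCh37 on the strand of the gene. Capitals mark the exon and lower case the 20 intron bases on each side. All 6 were coding in full and were bounded by the usual ag and gt intron ends.
RAD1, chr5:34913575-34913683, minus strand, 109 bases: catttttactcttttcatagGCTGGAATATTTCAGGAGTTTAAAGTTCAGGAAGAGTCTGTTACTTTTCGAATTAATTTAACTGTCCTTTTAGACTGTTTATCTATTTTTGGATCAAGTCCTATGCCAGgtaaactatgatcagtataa
FANCM, chr14:45609835-45609912, plus strand, 78 bases: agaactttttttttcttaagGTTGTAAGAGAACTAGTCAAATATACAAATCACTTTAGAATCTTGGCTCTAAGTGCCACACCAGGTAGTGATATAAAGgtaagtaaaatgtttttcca
MLH3, chr14:75500122-75500193, minus strand, 72 bases: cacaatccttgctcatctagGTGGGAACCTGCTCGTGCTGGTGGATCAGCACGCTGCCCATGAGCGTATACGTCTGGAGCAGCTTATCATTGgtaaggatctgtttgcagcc
MLH3, chr14:75506614-75506718, minus strand, 105 bases: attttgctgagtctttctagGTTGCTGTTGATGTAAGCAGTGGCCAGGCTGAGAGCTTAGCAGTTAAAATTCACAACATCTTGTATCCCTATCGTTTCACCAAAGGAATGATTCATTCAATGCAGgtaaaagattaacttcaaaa
ERCC1, chr19:45917221-45917292, minus strand, 72 bases: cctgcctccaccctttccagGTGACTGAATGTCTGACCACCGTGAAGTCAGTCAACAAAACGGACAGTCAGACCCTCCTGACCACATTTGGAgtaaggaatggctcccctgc
MSH5, chr6:31713014-31713096, plus strand, 83 bases: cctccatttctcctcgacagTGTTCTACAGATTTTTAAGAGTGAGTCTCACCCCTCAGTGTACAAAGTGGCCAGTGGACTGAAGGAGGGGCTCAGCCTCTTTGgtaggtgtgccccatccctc

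The RAD1 and MSH5 exons have lengths that are not multiples of 3, and the other exons shown keep the reading frame when skipped. The GC content of the 6 exons ran from 33.9% in RAD1 to 56.9% in the shorter MLH3 exon. The 20 bases before the exon, where the polypyrimidine tract lies, held 11 T in RAD1 and FANCM and 5 T in ERCC1.

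Most DNA repair exons were included almost always in both groups. The mean rate over the 6 samples was above 0.9 in 149 of the 217 events (68.7%), against 55.7% over the 24706 events with rates. It was below 0.1 in 32 events (14.7%, against 20% of all events), and it lay between 0.1 and 0.9 in 36 events (16.6%, against 24.3%). The exon was included in every counted read of every sample in 37 events (17.1%, against 12.4%) and had a rate of 0 in every sample in 7 events. The events had a median of 744 reads over both groups (from 44 to 16786), close to the median of 665 over the table. Reads are given in the table as sums over a group, 26498401 for control and 24116982 for RBM47 in all, so the depth of a single sample is unknown.

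**Figure D1:**
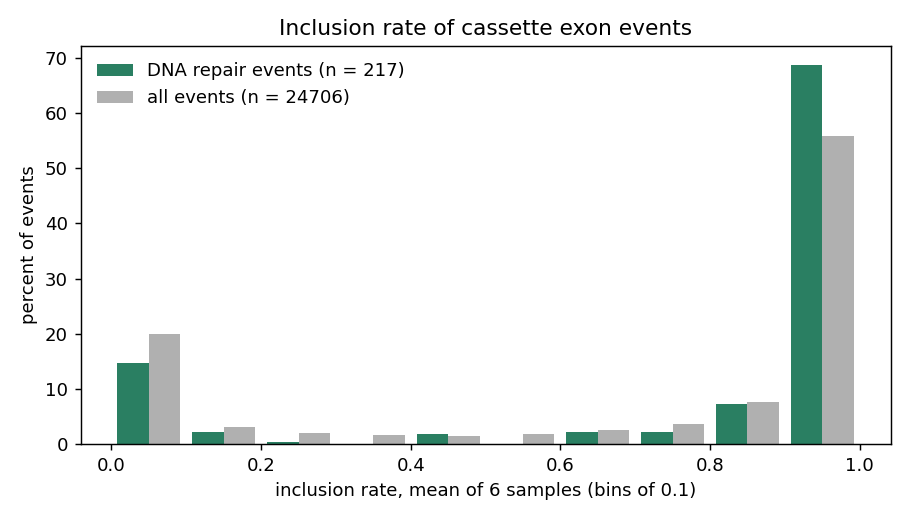
Percent of events (vertical axis) by inclusion rate averaged over the 6 samples (horizontal axis, bins of 0.1), for the 217 DNA repair events and for all 24706 events with rates. The DNA repair events fill the highest bin more often, with 68.7% above 0.9 against 55.7%.

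Across the 217 events the rate changed little between the groups. It was higher in RBM47 in 85 events, lower in 88 and equal in 44, with a median difference of 0 (quartiles -0.00919 and 0.0101). The median absolute difference was 0.00968, against 0.0114 over all events, and it was 0.0577 among the 36 events of intermediate rate, against 0.0597. In those 36 events the SD between the 3 samples of a group had a median of 0.0479 in control and 0.0532 in RBM47, about as large as the typical difference. A difference of at least 0.1 was seen in 12 events (5.53%, against 8.78%).

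**Figure D2:**
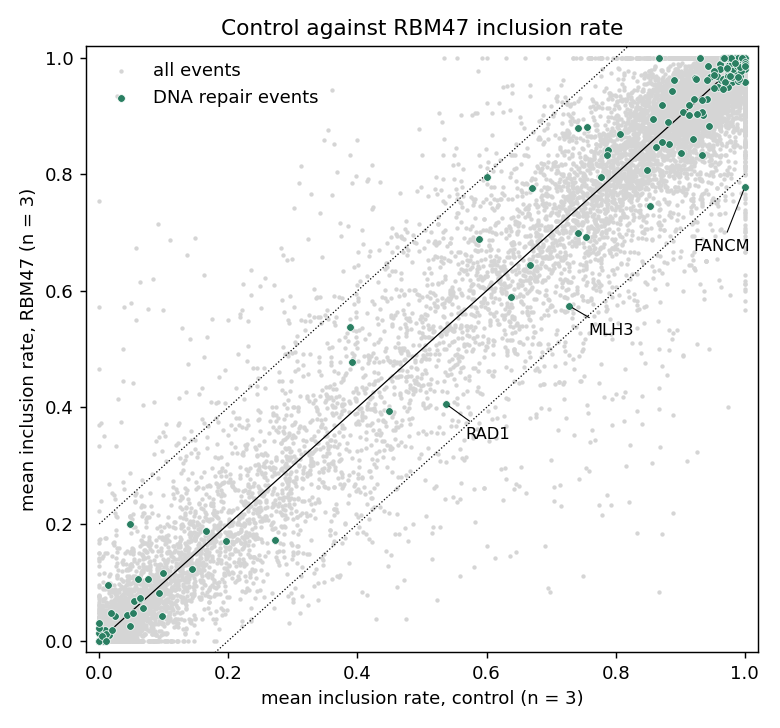
Mean inclusion rate in control (horizontal axis, n = 3) and RBM47 (vertical axis, n = 3) of the DNA repair events (green) over all events of the table (gray), with the line of equality and dotted lines at a difference of 0.2. FANCM lies beyond the lower dotted line at 1.00 against 0.778, and RAD1, at 0.537 against 0.406, lies inside it.

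The share of DNA repair events past each criterion is given beside that of the whole table, and the difference between the shares was not tested. Fisher's exact test (two-sided, on the reads summed over a group) gave an unadjusted p of at most 0.05 in 16 events (7.37%), 9 higher and 7 lower in RBM47, and the share over the whole table was 14.5%. After Benjamini-Hochberg adjustment of these p-values over all events, 6 DNA repair events stayed under 0.05, 5 higher and 1 lower (2.76%, against 5.32%). Among the 5 higher ones, an ATR and a FANCI event have group sums that do not match their sample rates, as described below. The same holds for the RBM47 sums of the lower one, in RAD1. The criteria of the study, an unadjusted Fisher p of at most 0.05 with a difference of mean rates of at least 0.2 and at least 10 reads, were met by 1 event, lower in RBM47. The share over the whole table was 1.40% in either direction and 0.793% for lower events. Because reads enter the Fisher test as group sums, it takes no account of how much the samples varied.

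The limma test, which works on the rates of the single samples, called none of the 36 DNA repair events of intermediate rate. No event had a Benjamini-Hochberg adjusted p under 0.05, where the share over the table was 2.23%, or 1.53% with a difference of at least 0.2 as well. At an unadjusted limma p under 0.05 there were 2 events, in RAD1 and FANCI (5.56%, against 12.0% of the events tested). All 3 RBM47 samples lay on the same side of all 3 control samples in 9 events (4.15%), 4 higher and 5 lower, and the share over the table was 9.92%.

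The whole-table shares depend on rows whose sample rates had to be re-assigned. In 1392 rows (5.63%) the printed sample rates did not average to the printed group averages, and 1373 of these could be matched to other rates of the table. All 1373 had a Fisher p of at most 0.05, and they held 270 of the 346 events that met the criteria of the study and 91 of the 92 events called by limma with a difference of at least 0.2. Among the 23333 rows that needed no matching, 9.4% had a Fisher p of at most 0.05 and 0.326% met the criteria of the study. Of the DNA repair events 215 needed no matching, with 14 at a Fisher p of at most 0.05 (6.51%) and 0 that met the criteria of the study. The 2 that were matched lie in FANCM and ERCC6L2.

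Among the damage signalling genes the exon of RAD1 was skipped more often in RBM47 samples. RAD1 is a subunit of the ring-shaped clamp that marks damaged DNA for ATR. Its 109-base exon had rates of 0.502, 0.519 and 0.591 in control and of 0.426, 0.371 and 0.423 in RBM47. Every RBM47 sample was below every control sample, with a gap of 0.0761 between the groups, and the difference of the means was -0.131. The event rested on 549 including and 223 skipping reads in control and on 305 and 194 in RBM47. From these sums the difference was -0.112, and the RBM47 sums give a rate above every RBM47 sample. Fisher's exact test gave p = 0.000241, or 0.00776 after Benjamini-Hochberg adjustment over the table. The Fisher test therefore rests on reads that do not fully match the RBM47 sample rates. The limma test gave an unadjusted p of 0.0103 and a Benjamini-Hochberg adjusted p of 0.195, the smallest of the 36 events but only number 317 by p among the 5998 tested. With each sample left out in turn the difference ran from -0.149 to -0.104.

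The other damage signalling genes differed less between the groups. Both ATM events had a rate of 1 in all samples, and in the event with more reads (283 in control and 81 in RBM47) no skipping read was seen. The CHEK1 exon of most reads was included in all 2945 reads, a count of 0 skipping reads that allows skipping reads to make up to 0.102% of the counted reads, from counting error alone and before the double weight that the rate gives them. CHEK2, a kinase activated by ATM, had an intermediate exon at 0.857 ± 0.0734 (SD, n = 3) in control and 0.895 ± 0.0703 in RBM47, and the samples of the groups overlapped. RAD17, the loader of the RAD1 clamp, had an event at 0.667 ± 0.0877 and 0.645 ± 0.105. Neither difference exceeded the spread between samples, with an unadjusted p from limma of 0.44 for CHEK2 and of 0.769 for RAD17.

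In ATR, the kinase of stalled replication forks, 2 of 3 events had a Fisher p of at most 0.05. One of them had rates of 0.839, 1 and 0.953 in control and of 1 in every RBM47 sample, with 7 skipping reads in control and 0 in RBM47 (Fisher's exact p = 0.0447, unadjusted). The other had rates from 0.00444 to 0.0135 in control and from 0.0116 to 0.025 in RBM47. Its group sums of 812 including and 375 skipping reads in control and of 1034 and 343 in RBM47 would give rates of 0.52 and 0.601, so the including reads of this event hold reads that the sample rates do not. Its Fisher test (p = 0.000178, or 0.00597 after Benjamini-Hochberg adjustment) therefore does not describe the rates.

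In the Fanconi anemia pathway, 7 of 41 events had an unadjusted Fisher's exact p of at most 0.05 (17.1%, near the 14.5% of the whole table), and 5 of the 7 were in FANCI. FANCI forms with FANCD2 the pair that is marked with ubiquitin in crosslink repair. It had 11 events, 7 higher in RBM47, 2 lower and 2 equal, and all 5 of its events of intermediate rate were higher. These 5 are not independent, since 6 of the 11 events share both outer ends with another event.

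The best read FANCI events of intermediate rate were a pair between the table positions 87649839 and 87651763 on chromosome 15, whose genome build is not stated. The event with 1878 reads had rates of 0.65, 0.527 and 0.59 in control and of 0.672, 0.747 and 0.646 in RBM47. The groups overlapped, with RBM47 replicate 3 just below control replicate 1, and the mean was higher by 0.0991. Its unadjusted limma p was 0.0446 and its Benjamini-Hochberg adjusted limma p 0.403, against 0.00251 for the adjusted Fisher's exact test. The group sums of this event give rates of 0.667 in control and 0.772 in RBM47, above every sample of the group. Its Fisher test therefore rests on reads that do not match the sample rates. The event with 3439 reads, which shares the 136 and 154 skipping reads, was at 0.788 ± 0.041 in control and 0.842 ± 0.0258 in RBM47 (n = 3 each).

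A group of 4 FANCI events ends at the same table position, 87591965, and lies upstream of that pair. The event with most reads (548) had rates of 0.404, 0.414 and 0.357 in control and of 0.483, 0.47 and 0.477 in RBM47. Here all RBM47 samples lay above all control samples. A pair with shared skipping reads, 19 in control and 11 in RBM47, was higher by 0.126 and by 0.196, and again the groups did not overlap. The control samples of the second event of that pair spread from 0.419 to 0.714, and without control replicate 3 its difference was 0.106. The last of the 4, with a rarely included exon, was lower, at 0.0969 ± 0.0402 in control and 0.042 ± 0.00225 in RBM47 (n = 3 each). None of these 4 events had an adjusted Fisher or limma p under 0.05. The group sums of the event with 548 reads give rates of 0.444 in control and 0.501 in RBM47. Those of the rarely included exon give 0.204 and 0.126. In both events these rates also exceed every sample of the group. For the event that was higher by 0.196 the RBM47 sums give 0.836, which is above every RBM47 sample as well.

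A near-constitutive exon of FANCI, 127 coding bases at chr15:89811630-89811756 on GRCh37, had 18 skipping reads against 639 including ones in control and 4 against 764 in RBM47. Its rates were 0.969, 0.882 and 0.977 in control and 0.968, 1 and 0.991 in RBM47, so the groups overlapped. Fisher's exact test gave 0.0206 after Benjamini-Hochberg adjustment. The events of its partner FANCD2, 3 in all, had means over the 6 samples from 0.99 to 0.995.

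FANCM, a translocase that recognises stalled forks, had the only DNA repair event that met the criteria of the study, and this rested on 1 sample. The rates of its 78-base exon were 1, 1 and 1 in control and 1, 0.333 and 1 in RBM47. The reads were few, with 38 including and 0 skipping in control and 7 and 3 in RBM47. The unadjusted Fisher's exact p was 0.00694, and the adjusted limma p (Benjamini-Hochberg) was 0.718. Without RBM47 replicate 2 the difference was 0. The control rates of this event were matched through its RBM47 average alone.

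Further Fanconi anemia genes gave smaller differences. FANCG, a scaffold of the core complex, was at 0.923 ± 0.021 in control and 0.965 ± 0.0102 in RBM47 (n = 3 each) with no overlap between the groups and an unadjusted Fisher's exact p of 0.0347, which did not pass adjustment. FANCL, the ubiquitin ligase of the core complex, had an exon at 0.489, 0.733 and 0.787 in control and at 0.756, 0.829 and 0.745 in RBM47. The low control replicate 1 set most of that difference of 0.107, which was 0.0162 without it. FANCA had a pair of events with shared skipping reads, 53 in control and 65 in RBM47, that differed by -0.062 and -0.0412 with overlapping groups. FANCE differed by -0.0417 over 1853 reads, also with overlap between the groups (0.729 to 0.75 in control and 0.641 to 0.731 in RBM47). FANCE, FANCG and FANCA are named here after their values were seen.

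**Figure D3:**
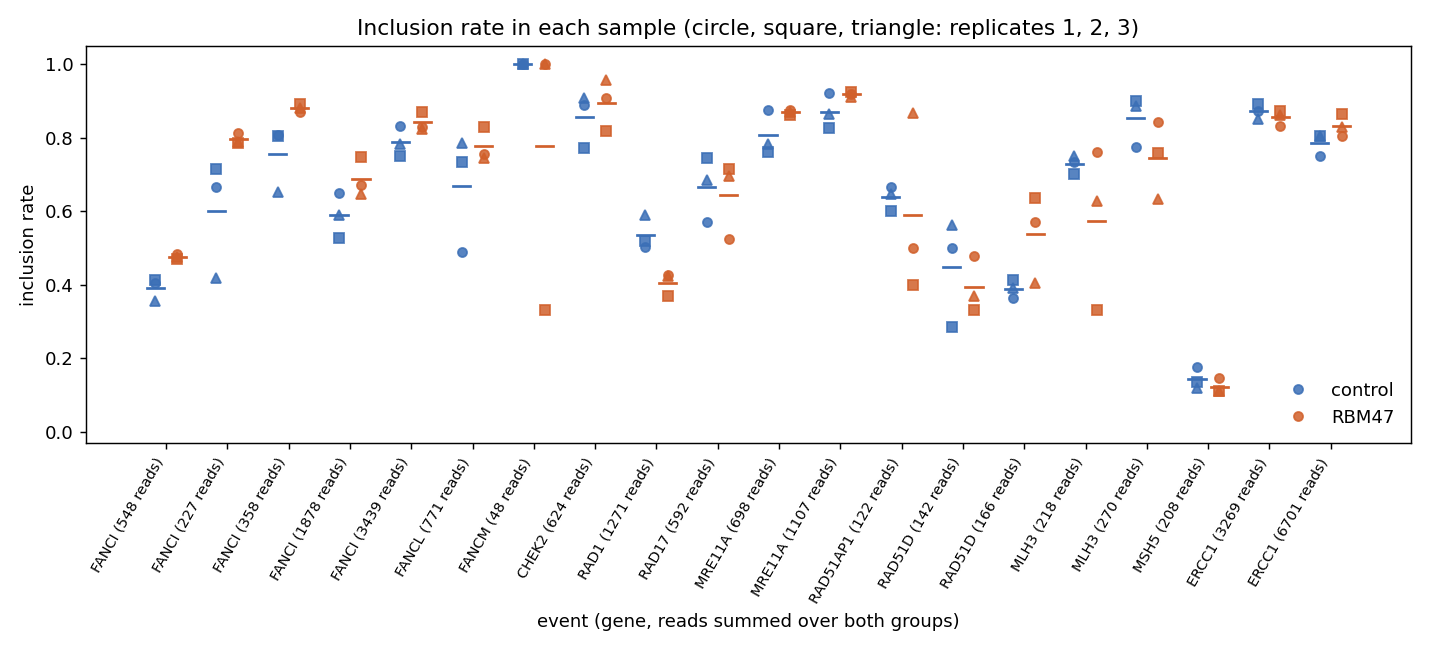
Inclusion rate (vertical axis) in each sample of control (blue) and RBM47 (orange) for 20 DNA repair events of intermediate rate, named by gene and by reads over both groups; symbols are replicates 1 to 3 and lines are group means. The 3 RBM47 samples of RAD1 lie between 0.371 and 0.426, below the control samples, whereas the low FANCM mean comes from 1 sample at 0.333.

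In homologous recombination 52 events in 15 genes had 20 higher and 22 lower differences, and none had rates that separated the groups. The BRCA1 event of most reads included its exon in 2703 of 2703 reads in control and 2250 of 2250 in RBM47. BRCA2, which acts in homologous recombination, had its event near 0, at 0.0144 ± 0.0131 in control and 0.0101 ± 0.0119 in RBM47, over an exon of 126 bases that the main annotated transcript lacks. MRE11A, the nuclease that trims broken ends, had a pair of events with shared skipping reads, 45 in control and 20 in RBM47. The event with 1107 reads had rates of 0.921, 0.828 and 0.865 in control and of 0.92, 0.925 and 0.912 in RBM47. The groups overlapped through control replicate 1, and the unadjusted limma p was 0.139.

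RAD51D, which acts in homologous recombination, had a pair of events sharing 31 and 19 skipping reads that differed in sign, by -0.0551 and by 0.149. Their samples overlapped and their reads were few, 142 and 166. RAD51AP1, another recombination protein, had an event at 0.667, 0.6 and 0.647 in control and at 0.5, 0.4 and 0.867 in RBM47, where the spread between the RBM47 samples exceeded the difference of the means. Reads of RAD51D may be shared with the overlapping readthrough gene RAD51L3-RFFL.

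Mismatch repair genes were mostly constitutive, with 35 of 45 events above 0.9. MLH3, which works in mismatch repair and in meiosis, was the mismatch repair gene with the largest drop. Its 72-base exon had rates of 0.733, 0.702 and 0.75 in control and of 0.762, 0.333 and 0.628 in RBM47. The control samples lay close together and the RBM47 samples far apart, so that the difference of -0.154 became -0.0336 without RBM47 replicate 2. Its 105-base exon had rates of 0.774, 0.9 and 0.887 in control and of 0.842, 0.76 and 0.633 in RBM47, a difference of -0.108 that became -0.0524 without RBM47 replicate 3. The unadjusted Fisher's exact p was 0.0154 for the shorter and 0.0476 for the longer exon, and neither passed adjustment. The unadjusted limma p was 0.24 and 0.201.

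MSH5, which acts in meiotic recombination, carried its 83-base exon at 0.143 ± 0.0298 in control and 0.123 ± 0.0208 in RBM47 (n = 3 each), so that most of the counted reads skipped a coding exon in both groups. The PMS2 events are uncertain, since pseudogenes such as PMS2P3 and PMS2P5, also in the table, share near-identical sequence with PMS2. Its 3 intermediate events differed by 0.138, -0.0604 and -0.0305, with samples from 0.556 to 1 in both groups.

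In nucleotide excision repair ERCC1 had the deepest read alternative exon of intermediate rate. ERCC1 forms with ERCC4 the nuclease that cuts on the 5-prime side of a lesion. Its 72-base exon had rates of 0.751, 0.805 and 0.806 in control and of 0.805, 0.864 and 0.83 in RBM47. The mean was higher by 0.0457, with RBM47 replicate 1 inside the range of the control samples. The reads were 3186 including and 438 skipping in control and 2796 and 281 in RBM47. Fisher's exact test gave 0.00377 after Benjamini-Hochberg adjustment, whereas limma gave an unadjusted p of 0.0878 and an adjusted p of 0.494. A wider ERCC1 event was at 0.872 ± 0.0199 in control and 0.856 ± 0.0205 in RBM47 (n = 3 each). The nucleotide excision repair genes ERCC2, ERCC3, ERCC5, ERCC6 and ERCC8 differed by no more than 0.0338 in any event.

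The base excision and single-strand break repair genes LIG1, LIG3 and XRCC1 had all 9 of their events above 0.9, with differences from -0.0152 to 0.018. The end joining genes were read at the greatest depth. XRCC6 had its exons at 0.993 and 0.998 in control and at 0.987 and 0.994 in RBM47 over 16786 and 6932 reads. XRCC5 had a rare exon, outside the annotated coding sequence, at 0.00413 and 0.00321.

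The rule also took 7 symbols that only resemble repair gene names or are readthrough transcripts, pseudogenes or relatives of repair genes. Among them ERCC6L2, a relative of ERCC6, had rates of 0.0732, 0.0286 and 0.04 in control and of 0.2, 0.4 and 0 in RBM47 over 79 reads. The RBM47 samples lay on both sides of the control samples, with an unadjusted Fisher's exact p of 0.0346 and an unadjusted limma p of 0.442.

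Junction reads were also taken as a rough guide to the abundance of a gene, as the sum over the 3 samples of a group at the event with most reads of the gene. With 1 sum per group there is no replicate check and no test. Among the 52 DNA repair genes with at least 100 reads the median ratio of RBM47 to control was 0.866, against 0.872 over 7360 genes and 0.91 for all reads of the table. A ratio of at most 0.5 was found in 5 genes (9.62%, against 10.8%), and a ratio of at least 2 in 0 genes (against 1.32%). Events of the same gene could differ in the ratio, from 0.333 to 1.03 in CHEK2 and from 0.439 to 1.16 in ATR. Changes in transcript number and in junction mapping cannot be told apart here.

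The lowest ratio belonged to ATM, with 283 reads in control and 81 in RBM47 (0.286), and its second event gave 0.185. FANCB, of the Fanconi core complex, followed with 134 and 53 reads (0.396), and then RAD17 with 679 and 332 (0.489, from 0.4 to 0.88 over its 9 events), ERCC6L2 with 84 and 42 and RAD54B, a motor protein of recombination, with 178 and 89 (0.5 each). The highest ratios were those of FANCI, with 1556 and 2479 reads (1.59), ERCC5, the nuclease on the 3-prime side of a lesion, with 619 and 939 (1.52), and FANCD2 with 430 and 617 (1.43). All 11 FANCI events had more reads in RBM47, with ratios from 1.09 to 1.75, while the ERCC5 events gave 0.931 and 1.52. RAD1 had 772 and 499 reads (0.646).

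**Figure D4:**
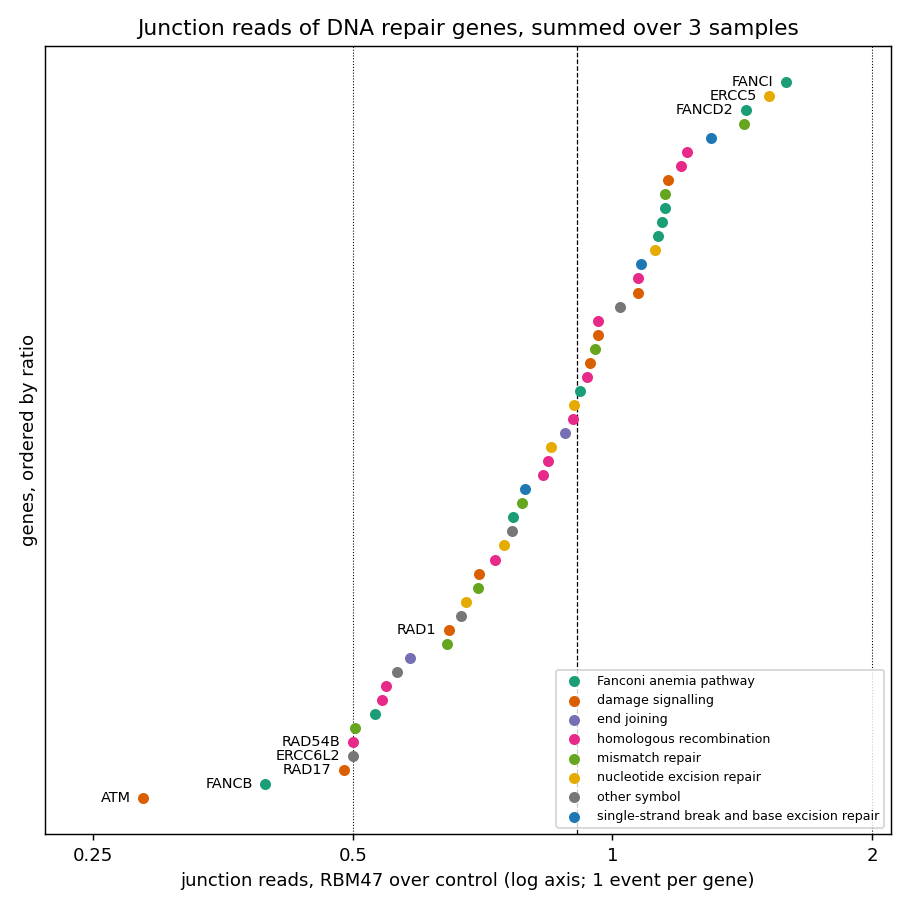
Junction reads of RBM47 over control (horizontal axis, log scale) for the 52 DNA repair genes with at least 100 reads at their best read event, each gene a point, ordered by ratio, and each color a repair route, with labels on the genes whose ratio the text gives; the dashed line is the ratio of all reads of the table (0.91) and the dotted lines are ratios of 0.5 and 2. ATM is lowest at 0.286 and FANCI highest at 1.59.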

How the data were processed

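RNA was poly(A) selected and sequenced by the authors, and the submitters' processing notes name TopHat whereas the methods of the study name STAR and the hg19 build for the RNA-seq of the cell lines, so that the aligner behind the splicing table was not settled here. The build of the positions in the splicing table is not stated for that table, and the exons matched on hg19 (GRCh37) lie at other positions. The deposited table holds, for each cassette exon event, counts of including and skipping junction reads summed over the samples of a group, and per sample an inclusion rate, a fraction from 0 to 1, both made by the authors. It also holds the authors' differences, odds ratios and p-values, which were not used.

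Sample rates that did not average to the printed averages were re-assigned to the row whose averages they gave (tolerance 3e-09): 1122 by both averages and 251 by the RBM47 average alone, and 19 rows were left without rates. This matching was chosen after the data were seen. Over the 251 rows the matched control rates correlated with the rates from summed reads at r = 0.968 across events, against 0.0294 for the printed control average.

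Fisher's exact test (two-sided, scipy 1.17.1) was run on the summed reads of all 24725 events with Benjamini-Hochberg adjustment (statsmodels 0.14.6). limma 3.58.1 in R 4.3.3 was fitted to arcsine square root rates of the 5998 events with a mean rate from 0.1 to 0.9, with a variance trend on log2 reads, and was tested on simulated data. Counts per sample were not used here, so no count model was fitted. Exon positions and sequences are matches by gene symbol and outer span to GENCODE on GRCh37: in all 42 genes with a matched exon the matches lay at 1 constant distance from the table positions, from 24961 to 4691839 bases by gene. Intervals and upper limits cover counting error only, with 3 counts as the limit for a count of 0.

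The members, lists and tests were chosen with earlier results of these data known. Events were named where they met the criteria of the study or had an adjusted limma p under 0.05, were among the 10 smallest limma p, were among the 3 events of a route nearest a rate of 0.5 with at least 100 reads, or were the best read event of a listed core gene. Events outside this rule were named after their values were seen, among them those of ATR, FANCI, PMS2 and ERCC6L2 given for their Fisher p, reads or gene. Some events are not reported here by name. Alternatives changed the threshold, filter, scale, rate source, samples and replicate block.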

Additional observations from a re-analysis of the deposited data

How the results depend on the processing

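The count that met the criteria of the study, 0 higher and 1 lower in RBM47 (FANCM), rested on 1 sample and 1 matched row. The lower count was 0 with the Fisher p adjusted by Benjamini-Hochberg, with a minimum difference of 0.3, with at least 30 reads in each group, with only rows aligned as deposited, and with the printed averages in place of rates. With a minimum difference of 0.1 the counts were 2 higher and 4 lower. With each sample left out in turn the higher count ran from 0 to 1 and the lower from 0 to 2, with 0 lower without RBM47 replicate 2 and 2 lower without RBM47 replicate 1. The limma count was 0 in all settings, with 1 to 5 of 31 to 173 events at an unadjusted p under 0.05. With only rows aligned as deposited limma called 1 event of the whole table, against 92. The median difference of the members moved by less than the spread between replicates throughout. Over 110 alternatives for 11 named events none had the opposite sign or an adjusted limma p under 0.05, but FANCM had a difference of 0 without RBM47 replicate 2 and of -0.0593 with the printed averages. In 3 of them, that one and MRE11A without control replicate 2 or 3, the event left the range of rates tested and had no limma p. Same-numbered samples of the groups did not deviate together (r = -0.0222, -0.0056 and 0.0142 over 5998 events). No pairing by replicate number was thus visible in the rates, which cannot show how the samples were prepared. With the replicate block the limma count stayed 0 and the whole table had 69 calls against 92. Removing the read filter took in no further event. The edgeR, DESeq2 and scaling alternatives were not run, since they need reads per sample. Depth limits the events with few reads, such as FANCM with 48, and the summed reads hide which sample they came from.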

Other observations

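Other DNA repair genes, on a list of further genes of these routes written with earlier results of these data known, had 290 events with rates in 93 genes. Of these 175 (60.3%, against 55.7% of all events) had a mean rate above 0.9, and 72 (24.8%, against 24.3%) were of intermediate rate. Fisher's exact test gave an unadjusted p of at most 0.05 in 28 events (9.66%, against 14.5% of the whole table). They were higher in RBM47 in 13 events and lower in 15. The groups did not overlap in 17 events (5.86%, against 9.92%). limma gave no Benjamini-Hochberg adjusted p under 0.05, where the share over the table was 2.23%. An unadjusted limma p under 0.05 was found in 4 events (5.56%, against 12.0%), in ALKBH3, EXO1, FAM175A and GTF2H1.

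The criteria of the study were met by 1 event higher and 2 lower in RBM47 (1.03% in either direction, against 1.40% of the whole table). GTF2H1, a subunit of the repair and transcription factor TFIIH, had rates of 0.4, 0.238 and 0.455 in control and of 1, 0.556 and 1 in RBM47 over 79 reads. All RBM47 samples lay above all control samples, with an adjusted limma p (Benjamini-Hochberg) of 0.253. APTX, which clears failed ligation ends, had rates of 0.429, 0.5 and 1 in control and of 0.333, 0.111 and 0.333 in RBM47 over 114 reads, again without overlap and with an adjusted limma p of 0.455. POLK, a polymerase that copies past damage, had rates of 1, 1 and 0.882 in control and of 0.333, 1 and 0.692 in RBM47 over 78 reads, with overlap. The sample rates of the GTF2H1 and POLK events were re-assigned by both averages, whereas those of APTX needed no matching. The group sums of APTX give a rate of 0.594 in RBM47, and those of GTF2H1 give 0.507 in control. Both rates lie above every sample of their group, so the Fisher tests of these events rest on reads that do not match the sample rates. FAM175A, a scaffold of the BRCA1-A complex, missed the minimum difference of the study but did not overlap between the groups, with rates of 0.0526, 0.0725 and 0.111 in control and of 0.31, 0.231 and 0.217 in RBM47 over 179 reads. Its group sums give 0.117 in control and 0.392 in RBM47, also above every sample of the group.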
